A study of Homo sapiens with 12 samples.

Results

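Chromatin accessibility was examined at the genes of 8 secreted proteins that cells attach to, or that tune attachment, in the extracellular matrix: FN1, VTN, SPARC, TNC, POSTN, THBS1, THBS2 and SPP1. The genes were listed by name, and every summit of the pooled peak list that lay inside one of them or within 10 kb of it (RefSeq genes, GRCh38.p14) was taken. This gave 57 of the 188019 summits in the list, in 41 intervals. They belonged to 7 of the 8 genes, and POSTN had none. Accessibility had been measured by ATAC-seq, in which a transposase cuts and tags open DNA, in HT1080 cells, an established human fibrosarcoma line. The cells had spent 48 h in rat tail type I collagen at 0.3 mg/mL (low), 1 mg/mL (medium) or 1.7 mg/mL (high), with 4 libraries per concentration and 12 in all. All 3 groups received 20 µM GM6001, a broad inhibitor of matrix metalloproteinases, so every group used here carried the inhibitor. All cells were released from the gel with collagenase and frozen before the assay. The list holds 1 value per summit over all libraries. Values per library, replicate spread and differences between collagen concentrations were therefore not analysed here, no test between conditions was run, and the depth per library is unknown.

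These proteins link cells to collagen. Fibronectin and vitronectin are adhesive glycoproteins that integrins bind through an arginine-glycine-aspartate motif, and fibronectin fibrils are a template on which collagen is laid down. The matricellular proteins (SPARC, tenascin-C, periostin, the thrombospondins and osteopontin) do little for the mechanical strength of the matrix. They bind collagen, growth factors and cell receptors, and many are made in wounds, in tumour stroma and during tissue remodelling. An accessible promoter is a common feature of genes that are being transcribed, but accessibility does not measure RNA or protein.

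The 250 bases upstream of the start are shown for 6 of the genes, because the summit nearest the start fell inside this window in 5 of them (FN1, THBS1, SPARC, TNC and THBS2), while POSTN is the gene with no summit. They are the reference sequence from RefSeq (GRCh38.p14), written 5′ to 3′ on the strand of the gene and ending at the base before the start, and not the sequence of HT1080 cells. Capitals mark matches, on either strand, to the TATA box (TATAAA and the wider TATAAN), the SP1 box (GGGCGG), the CCAAT box, the AP-1 motif (TGANTCA), the cAMP response element (TGACGTCA), the TEAD core (GGAATG), the RUNX core (TGTGGT) and the CArG box.
FN1 (chr2:215436069-215436318, minus strand): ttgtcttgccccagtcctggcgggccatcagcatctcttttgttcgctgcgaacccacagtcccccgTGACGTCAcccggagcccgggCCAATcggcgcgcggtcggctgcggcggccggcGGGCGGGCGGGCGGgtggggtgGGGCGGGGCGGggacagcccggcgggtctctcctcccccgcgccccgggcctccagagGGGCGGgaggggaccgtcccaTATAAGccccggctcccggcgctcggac
THBS1 (chr15:39580829-39581078, plus strand): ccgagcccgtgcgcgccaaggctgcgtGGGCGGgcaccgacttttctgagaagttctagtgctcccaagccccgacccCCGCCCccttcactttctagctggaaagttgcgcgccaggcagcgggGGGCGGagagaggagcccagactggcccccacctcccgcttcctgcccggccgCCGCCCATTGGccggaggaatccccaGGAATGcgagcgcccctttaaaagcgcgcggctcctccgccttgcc
SPARC (chr5:151686916-151687165, minus strand): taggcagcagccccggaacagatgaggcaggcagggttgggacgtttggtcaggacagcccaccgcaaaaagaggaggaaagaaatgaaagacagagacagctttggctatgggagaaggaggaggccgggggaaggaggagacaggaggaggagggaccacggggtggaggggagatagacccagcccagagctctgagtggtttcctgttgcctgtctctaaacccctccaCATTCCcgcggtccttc
TNC (chr9:115118158-115118407, minus strand): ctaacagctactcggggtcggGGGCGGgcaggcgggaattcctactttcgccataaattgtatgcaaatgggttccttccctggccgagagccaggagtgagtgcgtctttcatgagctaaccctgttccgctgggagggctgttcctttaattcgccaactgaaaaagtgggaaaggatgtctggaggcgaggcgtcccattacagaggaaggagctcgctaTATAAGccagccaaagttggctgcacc
THBS2 (chr6:169253847-169254096, minus strand): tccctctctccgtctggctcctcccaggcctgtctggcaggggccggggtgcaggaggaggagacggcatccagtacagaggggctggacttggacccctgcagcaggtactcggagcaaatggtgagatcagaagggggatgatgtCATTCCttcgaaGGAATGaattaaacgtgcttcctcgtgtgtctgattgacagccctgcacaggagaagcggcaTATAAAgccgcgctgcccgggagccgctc
POSTN (chr13:37598769-37599018, minus strand): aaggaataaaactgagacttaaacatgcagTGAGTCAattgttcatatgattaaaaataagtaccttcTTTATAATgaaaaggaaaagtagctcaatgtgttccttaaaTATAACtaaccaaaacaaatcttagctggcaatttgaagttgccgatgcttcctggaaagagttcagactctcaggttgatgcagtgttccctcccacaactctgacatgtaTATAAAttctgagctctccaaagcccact

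The listed motifs fell unevenly on the members. GGGCGG, the box bound by SP1-type factors, was present in 3 of 8 members (FN1, THBS1 and TNC) and in 56% of the 13817 upstream sequences of coding genes. FN1 held 6 matches between 129 and 49 bp upstream of the start, partly overlapping each other, and THBS1 held 4. The CCAAT box was present in FN1, THBS1 and VTN (35.2% of all upstream sequences). In THBS1 the CCAAT match, on the opposite strand, begins 66 bp upstream and adjoins a GGGCGG match at 72 bp. The cAMP response element TGACGTCA occurred in FN1, 183 bp upstream, and in 2.41% of all upstream sequences. GGAATG, the core recognised by TEAD factors, occurred in 4 of 8 members (THBS1, THBS2, SPARC and VTN) and in 10% of all. THBS2 held 2 such matches, beginning 103 and 91 bp upstream, on opposite strands. TATAAA was present in THBS2 and POSTN, beginning 29 bp upstream in both, and in 9.63% of all; POSTN held another match at 182 bp. The wider TATAAN, chosen after the letters had been seen and overlapping every TATAAA match, added FN1 (28 bp) and TNC (27 bp), against 16.3% of all. The AP-1 motif TGANTCA occurred in POSTN at 220 bp (5.04% of all), the RUNX core TGTGGT in SPP1 at 142 bp (9.04%), and the CArG box of serum response factor in 0 members (1.16%). A match describes letters in this window and does not show that a factor binds there.

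Of the 8 members, 7 had a summit in the gene or within 10 kb (background 89.8% of 20037 coding genes), and 6 had a summit within 1000 bp of the start (background 63.7% of the 15842 coding genes whose strand was listed). Neither count stands far from its background. Summit numbers were 12 at THBS2, 10 at FN1, 9 at TNC, 8 at SPARC, 7 at VTN, 6 at THBS1 and 5 at SPP1, against a median of 3 and an upper quartile of 6 over all coding genes. Per 10 kb of gene and window, VTN, the shortest of the genes at 3.0 kb, had the highest density (3.04) and TNC, the longest at 98.6 kb, the lowest of the 7 (0.759), against a median of 0.589 over coding genes. By position, 8 of the 57 summits lay within 1000 bp of the start, 32 elsewhere in the gene, 11 farther upstream and 6 past the end. The authors' enrichment (fold over the local background of the peak caller) had a median of 6.27 at the start, 1.92 in the gene, 2.06 upstream and 9.54 past the end. Of the 6 summits past the end, those of 17.1 (VTN), 14.9 (THBS2) and 7.75 (SPARC) lay within 1000 bp of the start of another gene. The window limit of 10 kb bears on the number of summits. The 17.1-fold summit in the VTN window lay 9.7 kb past the gene and 23 bp from the start of POLDIP2. A 2.02-fold summit lay 9.9 kb from SPP1. The nearest summits left out were at 10.1 kb (VTN, 5.08-fold), 10.3 kb (THBS2, 2.85-fold) and 10.8 kb (TNC, 7.23-fold).

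**Figure D1:**
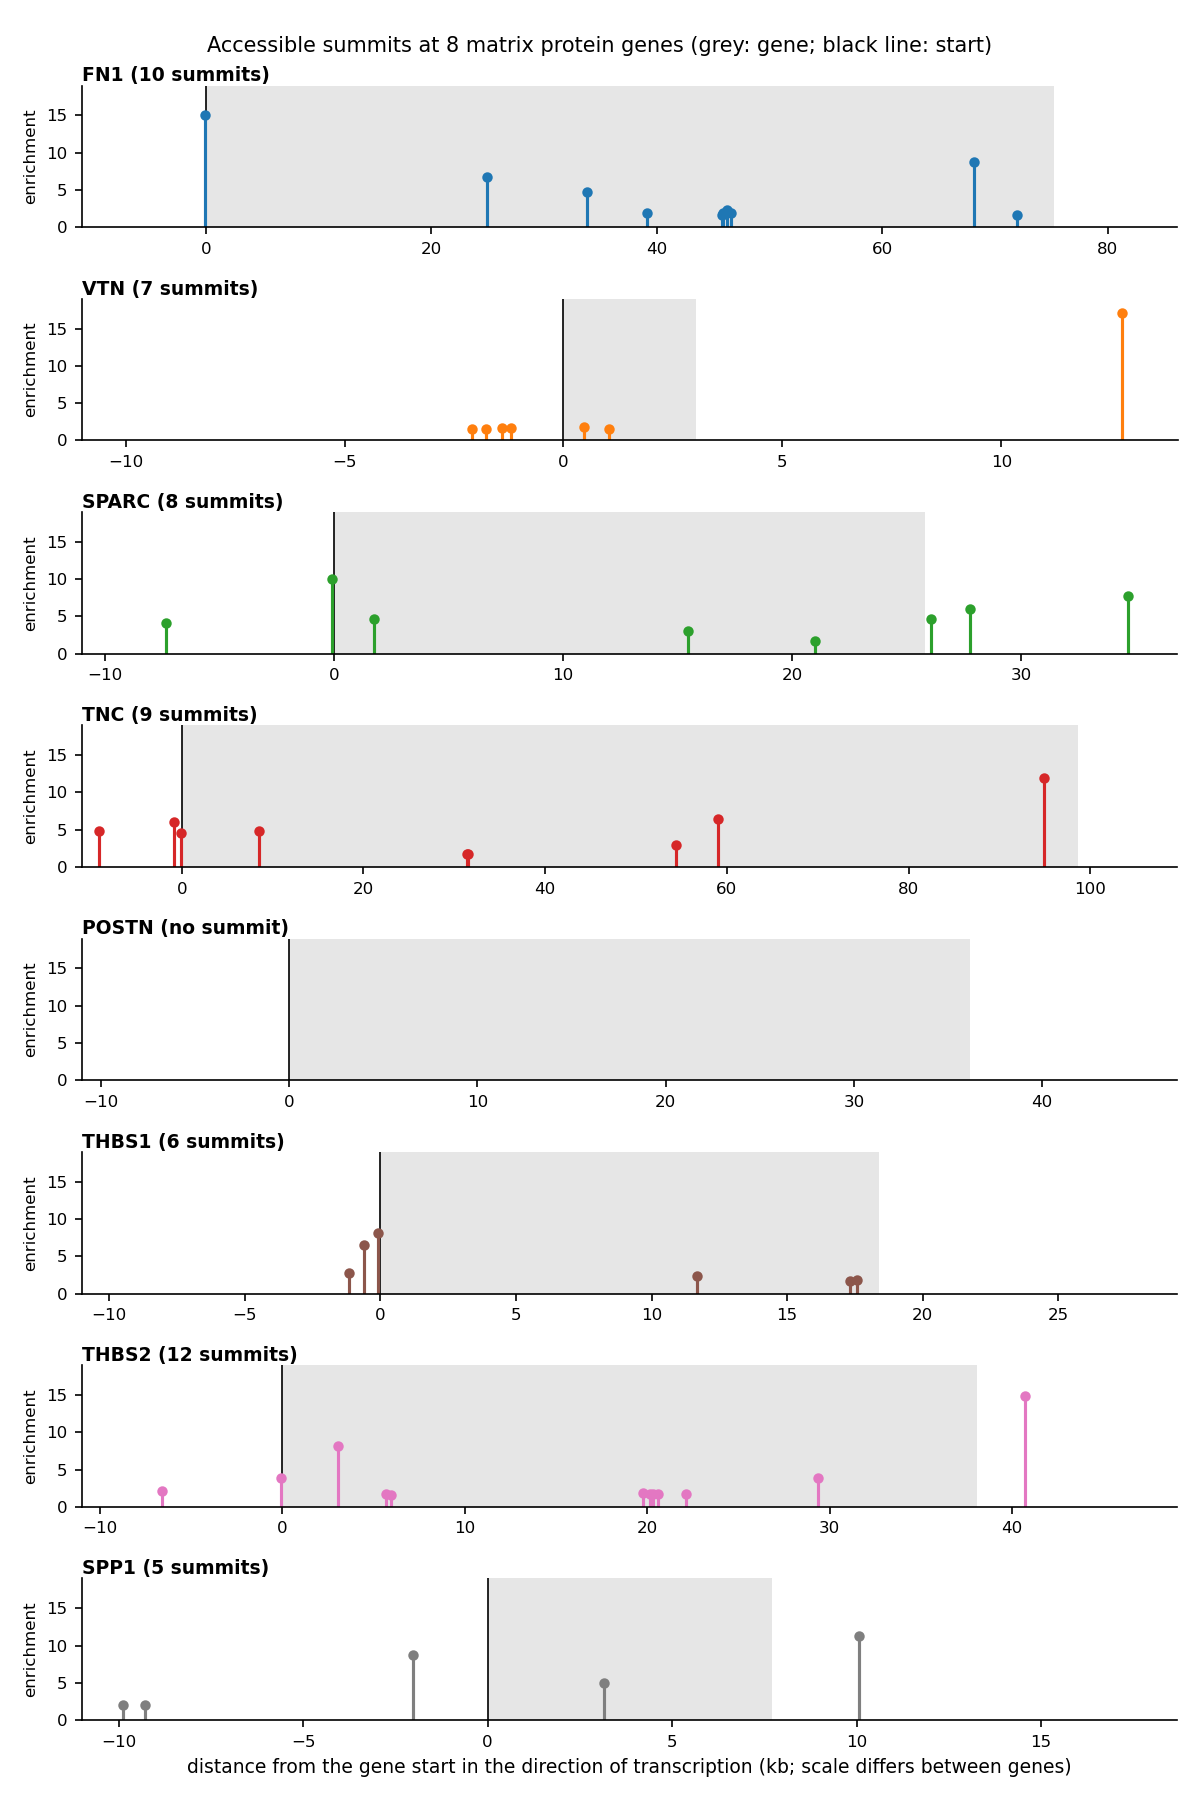
Enrichment (vertical axis, fold over background) of each summit against its distance from the gene start in kb (horizontal axis, scaled separately for each gene, positive in the direction of transcription); grey marks the gene. FN1, SPARC and THBS1 have their tallest summit at the start, TNC, THBS2, SPP1 and VTN have it elsewhere, and POSTN has none.

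FN1, which encodes fibronectin, had the strongest start of the group. Its start summit, 82 bp upstream in the interval chr2:215435601-215436732, reached 15.1-fold enrichment (−log10 q 946), with a pileup of 1216 against 79.6 in the background. Pileup here means how many fragments or extended reads overlap at the summit, as recovered from the enrichment and the p-value. The 95% Poisson interval of 1149 to 1286 covers counting error only. The enrichment stood at percentile 75.9 of coding genes that had a start summit. The same summit lies inside FN1-DT, a divergent noncoding transcript whose start is also within 1000 bp, so it cannot be assigned to FN1 alone.

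Inside the 75.2 kb FN1 gene 9 further summits were called, and 3 of them reached a −log10 q of 10. The strongest, 8.79-fold with a pileup of 240, lay 68.16 kb from the start, where the gene overlaps ATIC, a purine synthesis enzyme gene, within 1000 bp of an end of ATIC. It was followed by a 6.71-fold summit at 24.98 kb (pileup 187) and a 4.74-fold summit at 33.8 kb (pileup 100). The remaining 6 had enrichments of 1.60 to 2.25 and pileups of 36 to 47, and 4 of those shared a single interval about 46 kb from the start.

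VTN encodes vitronectin, a plasma and matrix glycoprotein made mainly by the liver, and its own signal was close to the floor of the list. The summit 469 bp inside the gene was 1.74-fold (−log10 q 3.56, pileup 67, background 38.1), at percentile 1.5 of start enrichments. A further summit at 1.05 kb had 1.499. The 4 summits upstream, in 1 interval with enrichments of 1.497 to 1.68, were all nearer to the start of SARM1 (22 to 708 bp) than to that of VTN. The 17.1-fold summit, with a pileup of 1555, lay 12.76 kb from the VTN start and 23 bp from the start of POLDIP2, and the start of VMA12 was also within 1000 bp. Without the summits nearest to another coding start, the highest enrichment at VTN was 1.74 in place of 17.1.

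Among the matricellular genes, SPARC, the collagen-binding protein also called osteonectin, had the strongest start. The summit 86 bp upstream (chr5:151686698-151687344) was 9.96-fold with a −log10 q of 559, and its pileup was 915 (95% Poisson interval 857 to 976). It stood at percentile 35.0 by enrichment and 54.8 by pileup, since its local background of 91.0 was 4.48 times the lowest in the list. The noncoding gene CLMAT3 overlaps this site.

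SPARC also differed from FN1 in what surrounded the start. Of its 8 summits, 7 reached a −log10 q of 10. One in the gene at 1.76 kb was 4.67-fold but reached a pileup of 434, over a background of 92.2. The 3 summits past the end lay 0.25, 1.96 and 8.86 kb from it and had enrichments of 4.598, 6.04 and 7.75. The last of these was within 1000 bp of the start of the noncoding gene LOC105378231. A 4.09-fold summit lay 7.31 kb upstream.

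THBS1 encodes thrombospondin 1, which activates latent TGF-beta. It had a broad accessible start: 1 interval of 1863 bp (chr15:39579640-39581502), the longest at any member, held 3 summits. Enrichment was 8.18 at 65 bp upstream (pileup 721), 6.55 at 582 bp (pileup 573) and 2.80 at 1.14 kb (pileup 245), so the strongest summit was the one closest to the start. The coding gene LOC124903470 lies over the farther 2 summits, and its strand was not listed. The strongest stood at percentile 26.3 of start enrichments. In the rest of the gene THBS1 had 3 weak summits of 1.74 to 2.38, and 2 of them lay in the overlap with FSIP1.

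THBS2, the close relative of THBS1, showed another layout. Its start summit, 98 bp upstream (chr6:169253589-169254106), was 3.84-fold, at percentile 11.5, and its pileup was 130 (95% Poisson interval 109 to 154). A summit 3.03 kb inside the gene was stronger, with 8.09 and a pileup of 306 (273 to 342). The strongest, 14.9-fold with a pileup of 547, lay 2.64 kb past the end (chr6:169213030-169213602), within 1000 bp of the start of the antisense gene THBS2-AS1. The THBS2 window held 12 summits, but 8 of them had a −log10 q under 10, and 7 of these 8 were in the gene with enrichments of 1.59 to 1.805.

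In TNC, which encodes tenascin-C, a large oligomeric protein that weakens attachment to fibronectin, the strongest site was also far from the start. It lay 94.92 kb into the gene and 3.66 kb before its end (chr9:115023060-115023486), at 11.98-fold (−log10 q 240), and its pileup was 346 (95% Poisson interval 311 to 384). The start interval held 2 summits. At 106 bp upstream enrichment was 4.58 and pileup 228 (199 to 260), and at 861 bp they were 5.998 and 297. Other summits in TNC had 6.38 at 59.01 kb and 4.83 at 8.51 kb, and a 4.78-fold summit lay 9.14 kb upstream. Several noncoding genes overlap the upstream end of TNC, and LOC124902255 covers both start summits.

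SPP1 encodes osteopontin, a phosphoprotein ligand of integrins and CD44. No summit was called within 1000 bp of its start. The nearest, 2.04 kb upstream, was 8.74-fold with a pileup of 252, and it lies within 1000 bp of the start of the noncoding gene LOC124900730. The strongest, with 11.3 and 270, lay 2.36 kb past the end (chr4:87985174-87985999). Inside the gene 1 summit at 3.17 kb had 4.97. The remaining pair, 9.3 and 9.89 kb upstream, had 2.06 and 2.02.

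POSTN encodes periostin, a protein of collagen-rich and remodelling tissues that promotes collagen crosslinking. None of the 188019 summits lay in its 36.2 kb (chr13:37562585-37598768) or within 10 kb of either side. The nearest was 18.6 kb upstream of the start, at 3.61-fold (−log10 q 19.4, pileup 76), and the next was 31.2 kb past the end, with 2.44. The first strong site, 14.97-fold with a pileup of 735, was 58.0 kb upstream. A gene without a called summit was not detectably accessible at the pooled depth, which does not show that its chromatin was closed in every cell. Few accessible cells and weak accessibility in all cells cannot be told apart in bulk libraries.

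Most start summits of the members lay just upstream of the start. In 5 of the 6 members with one (FN1, SPARC, THBS1, TNC and THBS2) the summit nearest the start lay 65 to 106 bp upstream, and VTN, at 469 bp inside the gene, was the exception. Over the 10093 coding genes with a start summit, the nearest lay at a median of 47 bp upstream, with quartiles from 118 bp upstream to 40 bp inside the gene, and 48.5% lay up to 150 bp upstream. Read by the strongest start summit, which in TNC is the one at 861 bp, 4 of the 6 members lay up to 150 bp upstream, against 46.9% of those coding genes. The highest enrichment within 1000 bp of the start ranged from 15.1 at FN1 through 9.96, 8.18, 5.998 and 3.84 at SPARC, THBS1, TNC and THBS2 to 1.74 at VTN. The median over coding genes with a start summit was 12.3, with quartiles of 7.87 and 15.0, so that 5 of the 6 lay below the median. By pileup the place of SPARC changed. Against a median start pileup of 815, FN1 (1216) and SPARC (915) lay above. THBS1 (721), TNC (297), THBS2 (130) and VTN (67) lay below.

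**Figure D2:**
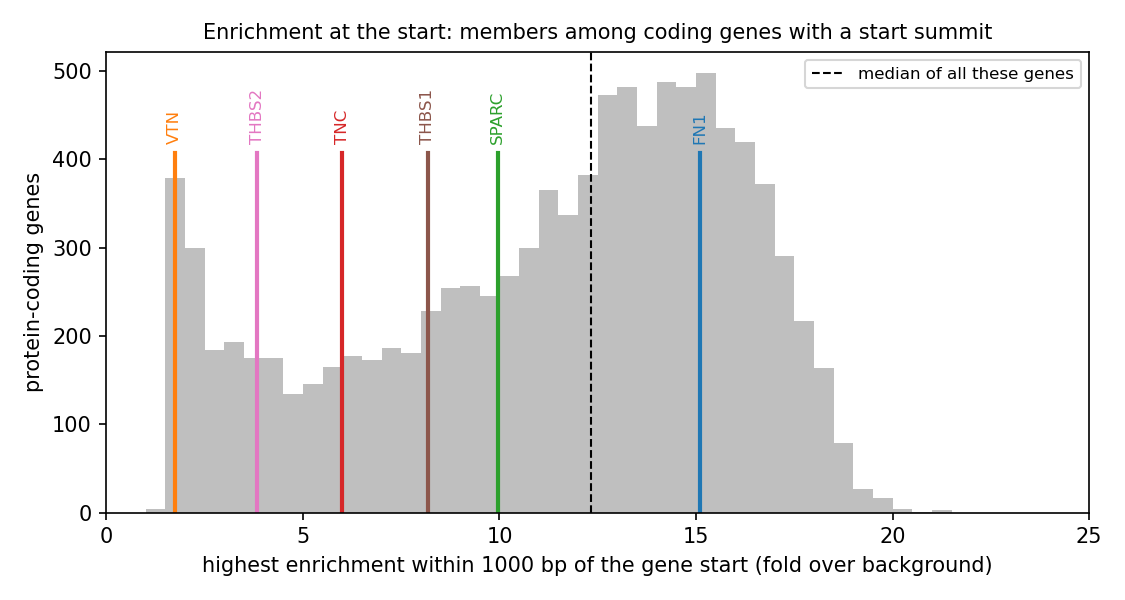
Histogram of the highest enrichment within 1000 bp of the start (horizontal axis, fold over background) over the 10093 coding genes with a start summit (vertical axis, number of genes), with coloured lines for the members and a dashed line at the median of 12.3. FN1 lies to the right of the median and SPARC, THBS1, TNC, THBS2 and VTN lie to the left.

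The strongest summit was at the start in 3 members (FN1, SPARC and THBS1) and elsewhere in 4 (TNC, THBS2, SPP1 and VTN). Without summits nearest to another coding start, it was at the start in 4, as the strongest at VTN was then its 1.74-fold start summit. Among the 14309 coding genes with a summit and a listed strand, it was within 1000 bp of the start in 46.3%. That share counts all summits in the window, as the count of 3 members does. No matching share is given for the count of 4. The highest enrichment in the gene or window had a median of 11.98 over the 7 members and of 12.4 over coding genes. It was above 10 at FN1, VTN, TNC, THBS2 and SPP1, against a background of 59.5% of coding genes. At VTN this rested only on the site at the POLDIP2 start. At THBS2 it rested only on the site past the end, near the THBS2-AS1 start, and the next highest there was 8.09. The FN1 site is also near the FN1-DT start. With summits in the gene itself as the only ones counted, the median over members was 4.97. That setting drops start summits lying upstream of the start, and no matching median over coding genes is given here.

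The order of the summits differed between enrichment and pileup, because local background varied among the genes. It was at the lowest value of the list, 20.3, for 15 of the 57 summits (26.3%), compared with 24.7% of summits in or near coding genes. Backgrounds of 79.6 to 92.2 were found around the starts of FN1, SPARC and THBS1 and at the POLDIP2 site in the VTN window. The summit of SPP1 past its end and that of SPARC in the gene are an example: SPP1 had 11.3 with a pileup of 270, and SPARC had 4.67 with a pileup of 434. Of all 57 summits, 29 (50.9%) reached a −log10 q of 10, against a background of 70.1% for the 68749 summits in or within 10 kb of a coding gene. The members differed in this. It was reached by 7 of 8 summits at SPARC, 7 of 9 at TNC, 3 of 5 at SPP1 and 3 of 6 at THBS1. At FN1 it was 4 of 10, at THBS2 4 of 12 and at VTN 1 of 7. The 57 summits lay in 41 intervals, so some weak summits share an interval and are not separate sites. The median enrichment was 2.80 at the members and 4.34 at those 68749 summits.

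**Figure D3:**
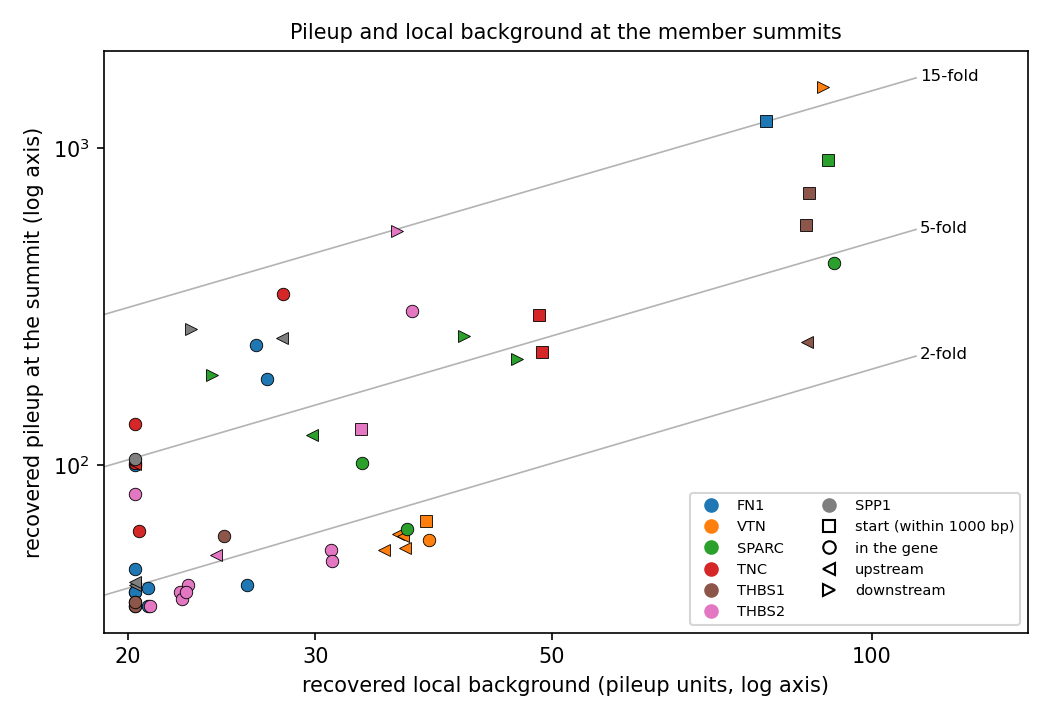
Recovered pileup (vertical log axis) against recovered local background (horizontal log axis) for the 57 summits; colour gives the gene, the symbol gives the position, and grey lines mark equal enrichment. Start summits of FN1, SPARC and THBS1 combine high pileup with high background, whereas the strongest sites of TNC and SPP1 sit over backgrounds of 28.0 and 22.9.

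A property of the sequence that played no part in choosing the genes is the CpG ratio, the observed number of CpG dinucleotides over that given by the C and G content, here in the 250 upstream bases. It was 0.878 at FN1, 0.806 at THBS1, 0.649 at TNC, 0.539 at THBS2, 0.340 at SPARC, 0.255 at SPP1, 0.213 at VTN and 0.121 at POSTN, against a median of 0.740 over coding genes. Both members with a ratio above 0.75 (FN1 and THBS1) had a start summit, as did 87.5% of coding genes in that class. So did both members between 0.5 and 0.75 (TNC and THBS2; background 72.5%). In the class from 0.25 to 0.5, where the background was 35.1%, SPARC had one and SPP1 had none. Below 0.25 the background was 18.2%; VTN had a start summit and POSTN had none. Start enrichments were also set beside the median of coding genes of the same class that had a start summit. Above 0.75 that median was 13.2, with FN1 (15.1) above it and THBS1 (8.18) below. TNC (5.998) and THBS2 (3.84) lay below the 12.1 of their class. SPARC (9.96) lay above the 6.83 of its class, though below the 12.3 over all classes. VTN (1.74) lay below the 4.02 of its class.

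**Figure D4:**
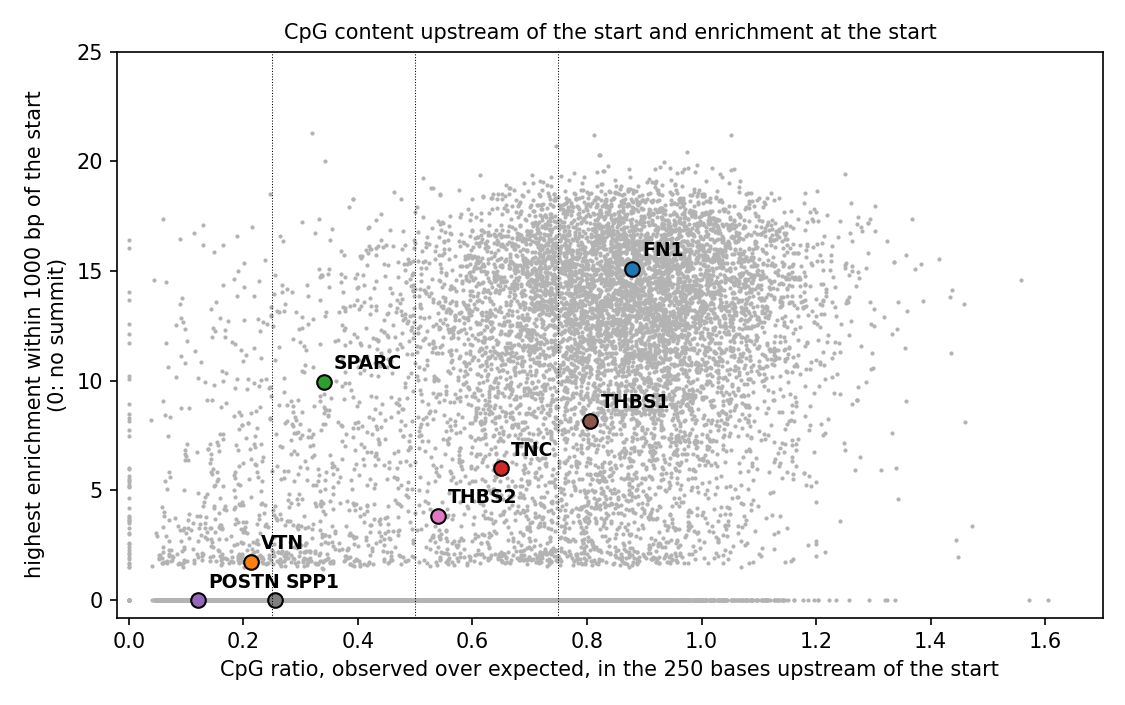
Highest enrichment within 1000 bp of the start (vertical axis; 0 means no summit) against the CpG ratio of the 250 upstream bases (horizontal axis) for 13817 coding genes (grey) and the 8 members (coloured); dotted lines separate the 4 classes. POSTN and SPP1 lie on the zero line at low CpG ratios, and SPARC lies above the other members with a ratio under 0.5.

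Genes tied to the members by role were read in the same way, against the same 63.7% of coding genes with a start summit. Of the matricellular relatives 13 of 18 had a listed strand and 4 of those 13 (30.8%) had a start summit. They were THBS4 (15.0), another thrombospondin, CCN2 (9.61), a matricellular growth-factor modulator, LGALS3 (6.27), a galectin, and THBS3 (2.84). FBLN5, an elastic fibre protein, had no summit in the gene or within 10 kb. Receptors of the members had a start summit in 10 of 13 genes (76.9%). The strongest were CD47 (15.1), a thrombospondin 1 receptor, ITGAV (14.7), the alpha subunit of vitronectin-binding integrins, and ITGB1 (12.3), the beta subunit of the main fibronectin and collagen receptors. CD36, also a thrombospondin receptor, had no summit in the gene or window. Upstream regulators and matrix partners had one in 7 of 9 genes (77.8%), led by TGFBR2 (18.5), a TGF-beta receptor subunit, COL5A1 (11.04), a collagen V chain, and SMAD3 (9.83), which carries the TGF-beta signal to the nucleus. In the gene or window, 17 of 18 relatives, 14 of 15 receptors and all 14 genes of this last list had a summit. The share over all coding genes was 89.8%.

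**Figure D5:**
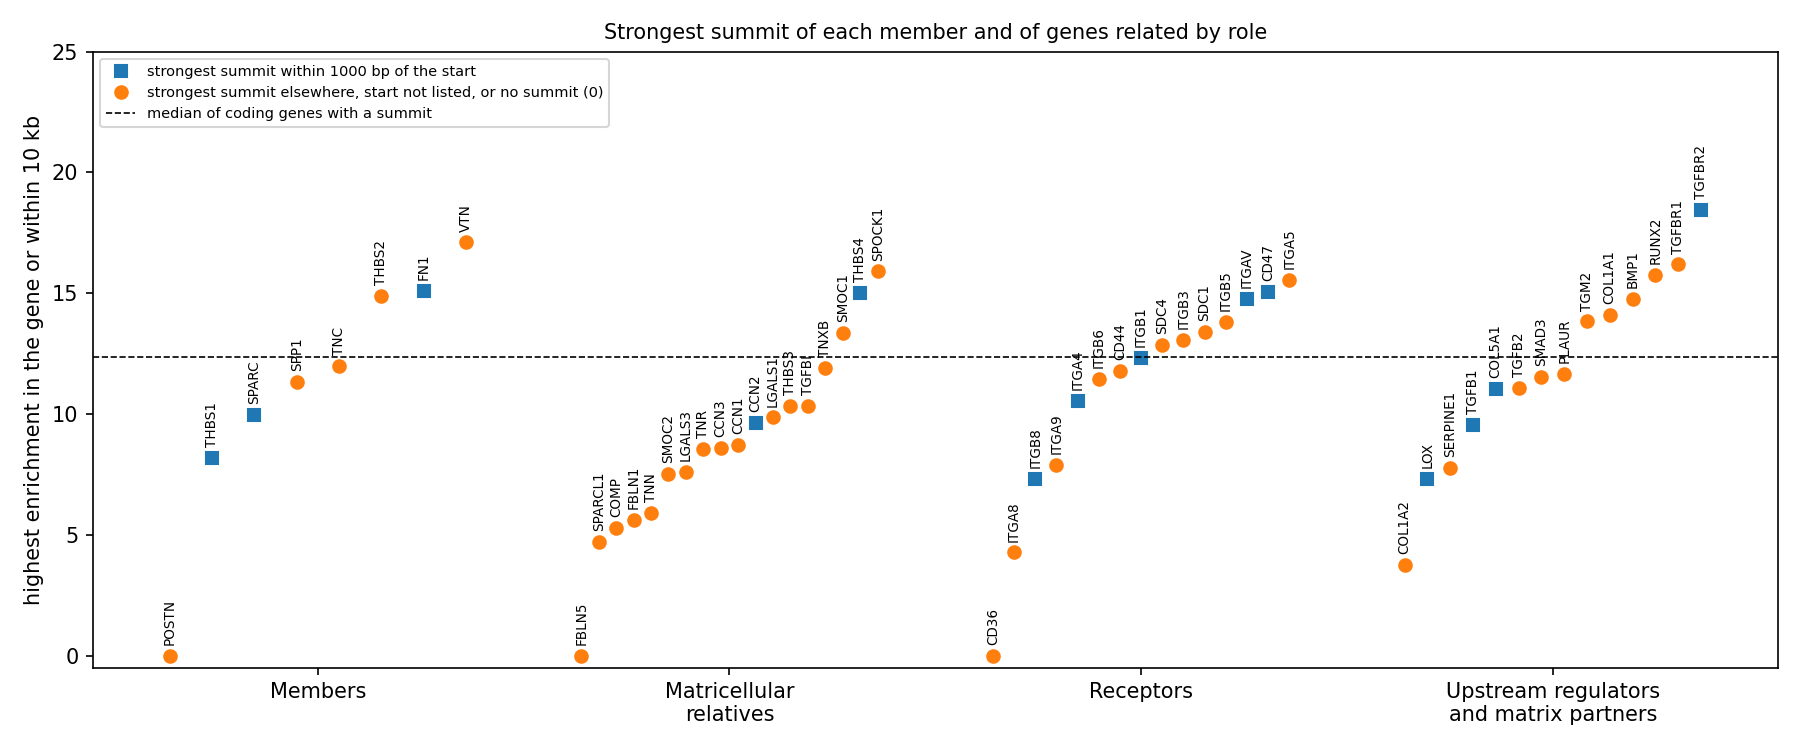
Highest enrichment in the gene or within 10 kb (vertical axis, fold over background) for the members and for 3 lists of related genes; blue squares mark genes whose strongest summit is within 1000 bp of the start, and the dashed line is the median of 12.4 over coding genes with a summit. POSTN, FBLN5 and CD36 lie at 0, and each list spans values on both sides of the line.

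As a check of the labelled cell type, 30 marker genes were read, and they did not single out a mesenchymal cell. A start summit was present in 4 of 4 mesenchymal markers with a listed strand (VIM, S100A4, PDGFRB and ZEB1), 1 of 2 epithelial markers (KRT8), 1 of 2 endothelial markers (KDR) and 0 of 3 blood markers. The share over coding genes with a listed strand was 63.7%. In the gene or within 10 kb the counts did not separate the lists, and the mesenchymal list had the lowest median enrichment. A summit was present in 9 of 10 mesenchymal, 7 of 8 epithelial, 6 of 6 blood and 6 of 6 endothelial markers. The share over all coding genes was 89.8%. The median of the highest enrichment there was 6.43 for the mesenchymal list, against 12.7 for the epithelial, 11.7 for the blood and 9.92 for the endothelial list. Over coding genes with a summit it was 12.4. High values occurred at the epithelial genes CLDN4 (16.4), EPCAM (15.9) and KRT19 (12.9), the T cell gene CD3E (14.5) and the mesenchymal gene COL1A1 (14.1). The mesenchymal marker COL3A1 and the epithelial marker ESRP1 had no summit, and the epithelial marker GRHL2 reached 6.31. Summits in such windows can belong to neighbouring genes.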

How the data were processed

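The submitters' processing notes name fastp 0.20.0, Bowtie2 2.4.3, SAMtools, deepTools 3.5.0, MACS2 2.2.7.1 and the build hg38, without roles or settings. The authors deposited 1 peak list for the 12 libraries together, with no column per library, so the planned edgeR test between concentrations had no input. Each line of the deposited list gives an interval, a summit, a score, an enrichment (a fold ratio at the summit), and p and q as −log10 values. The lowest −log10 q of 1.30 is a q of 0.05. Columns were read by their layout, as the file has no header, and the score was not used.

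Pileup and background were recovered from enrichment and p together: enrichment equals pileup plus 1 over background plus 1, and p is the Poisson probability of a pileup above the one seen, given the background. This model is not stated in the sources used here. It gave whole pileups (within 0.05) for 99.96% of lines and for all 57 member summits. The recovery was also run on data simulated from this same model, which checks the calculation and not the model. Summits were assigned by position (1-based) to RefSeq genes of GRCh38.p14. Starts are the outer gene end on the strand given by the RefSeq promoter table, which listed 15842 of 20037 coding genes and all 8 members. Exon boundaries were not used. Named genes were the members, the 3 strongest starts of each related list and list genes without a summit, and genes near or over a member summit. THBS3, the marker genes named and the other single genes were named after their values were seen. The members and lists were chosen with earlier results of these data known. Percentiles and shares over coding genes are descriptions, without a test. Python 3.11.15, pandas 2.3.3, NumPy 2.4.6 and SciPy 1.17.1 were used.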

Additional observations from a re-analysis of the deposited data

How the results depend on the processing

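Alternatives were the window (0, 5 or 50 kb), the distance from the start (500 or 2500 bp), a −log10 q of at least 10, the strongest summit of each interval, any overlap of the interval, either gene end, and, chosen after seeing the data, any listed start and leaving out summits nearest to another coding start. The 57 summits became 33 in the genes alone, 93 with 50 kb and 29 at a −log10 q of at least 10. In the genes alone, the median over members of the highest enrichment was 4.97, and 1 member in place of 3 had its strongest summit at the start. This setting drops the start summits of FN1, SPARC and THBS1 by construction, as they lie 82, 86 and 65 bp upstream. The 1 member was VTN, at 1.74. With 50 kb, 0 members had their strongest summit at the start, since stronger sites lay farther out. Without summits nearest to another coding start, 4 members did. The number of members with a summit was 7, and 8 with 50 kb, where POSTN gained summits. The number with a start summit was 6, with 5 at a −log10 q of at least 10 and 7 at 2500 bp. These counts and the start counts of the related lists stayed within 1.5 times under every alternative run on them. With 8 members, the member counts could not have risen past that limit. The same holds for the 13 receptors and the 9 regulators and partners with a listed strand. The share of coding genes with a start summit ranged from 58.2% (500 bp) to 70.3% (2500 bp), and the one for the window from 66.1% (gene alone) to 96.3% (50 kb). No paired analysis was possible because the list carries no value per library; leaving out single replicates, a low-count filter and other size factors were not run for the same reason. Pooled depth limits the weak sites: those with pileups under 50 have wide counting intervals.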
